A study of Mus musculus with 2 samples.

Results

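Proneural and neuronal basic helix-loop-helix (bHLH) transcription factors were examined in single Sox1-GFP+ cells of the mouse tail and brain. The 8 genes Neurog1, Neurog2, Atoh1, Neurod1, Neurod2, Neurod4, Nhlh1 and Nhlh2 were chosen by name, out of 19392 genes listed in at least 1 kept cell. A barcode was kept as a cell if it listed over 200 but under 4000 genes and if mitochondrial molecules made up less than 40% of its total. The Sox1-GFP mouse carries a reporter in the Sox1 gene, a neuroepithelial transcription factor, and both groups carried this reporter and no other treatment than dissociation with trypsin and sorting for GFP by flow cytometry. The tail cells came from postnatal mice and the brain cells from adult mice, per the study's methods, with 1 library per tissue. Tissue, age and library therefore cannot be told apart, the number of animals behind each library is not given in the sources used here, and each value describes these libraries. The study used the tail cells to ask whether neural stem cells of neuroepithelial origin exist outside the central nervous system. All 8 factors were found in the tail and 7 of them in the brain.

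Proneural bHLH factors such as the neurogenins and Atoh1 commit dividing progenitors to a neuronal fate and cause them to leave the cell cycle. They act as dimers with the widely expressed E proteins on the E-box, a short DNA motif spelled CANNTG, and are opposed by Id proteins, which sequester E proteins, and by Hes and Hey repressors downstream of Notch. The neuronal bHLH factors of the Neurod and Nhlh families are switched on later, in newborn neurons, and many of them are lost again as neurons mature. Neurod1 is also known in granule neurons of the hippocampus and cerebellum, Atoh1 in cerebellar granule precursors, dorsal spinal interneurons, hair cells and Merkel cells, and Nhlh1 and Nhlh2 in newborn neurons across the embryonic nervous system.

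The promoters of the 3 factors that carried most of the molecules are shown because these factors bind E-boxes and were found together in the same cells. Each sequence runs 5′ to 3′ from 250 bases before to 50 bases after the RefSeq start site on GRCm38.p6, with every CANNTG in capitals. The window of Nhlh1 is chr1:172057547-172057846 on the minus strand, that of Nhlh2 chr3:102009895-102010194 on the plus strand, and that of Neurod1 chr2:79456587-79456886 on the minus strand.
Nhlh1: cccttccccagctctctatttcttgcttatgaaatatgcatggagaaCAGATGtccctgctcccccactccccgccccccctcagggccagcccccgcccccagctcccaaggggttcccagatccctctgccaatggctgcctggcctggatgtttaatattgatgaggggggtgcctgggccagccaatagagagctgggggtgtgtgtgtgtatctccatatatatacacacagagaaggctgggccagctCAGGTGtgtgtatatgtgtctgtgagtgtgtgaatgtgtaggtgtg
Nhlh2: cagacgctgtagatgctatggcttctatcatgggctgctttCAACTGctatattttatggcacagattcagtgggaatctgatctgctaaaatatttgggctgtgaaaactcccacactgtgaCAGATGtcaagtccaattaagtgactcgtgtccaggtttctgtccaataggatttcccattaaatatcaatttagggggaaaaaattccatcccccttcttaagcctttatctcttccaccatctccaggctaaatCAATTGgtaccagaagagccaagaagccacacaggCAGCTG
Neurod1: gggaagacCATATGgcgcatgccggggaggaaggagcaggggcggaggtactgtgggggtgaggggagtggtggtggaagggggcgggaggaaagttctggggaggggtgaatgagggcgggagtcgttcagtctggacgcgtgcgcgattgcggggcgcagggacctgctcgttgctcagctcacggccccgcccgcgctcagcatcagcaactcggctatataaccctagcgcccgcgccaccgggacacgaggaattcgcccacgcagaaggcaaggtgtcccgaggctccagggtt

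Nhlh1 held 2 E-boxes in this window, Nhlh2 held 4 and Neurod1 held 1. The spelling CAGATG occurred once in the window of Nhlh1, 203 bases before the start site, and once in that of Nhlh2, 127 bases before it. The motif CANNTG reads the same on both strands as a pattern and is frequent, present in 23756 of 32851 RefSeq mouse promoter windows of this length (72.3%). The spelling CAGATG, or CATCTG on the other strand, is a subset of it, was present in 5635 of these windows (17.2%), and occurred in those of Nhlh1, Nhlh2 and Neurod2. RefSeq gave 9 promoter windows for the 8 factors, and 6 of them held a CANNTG. A match describes these letters only and is not a measured binding site.

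In the annotation (GENCODE vM21, GRCm38), each factor is a protein-coding gene. Neurog1 (chr13:56250478-56252163, minus strand) and Atoh1 (chr6:64729125-64731245, plus strand) have 1 exon. Neurog2 (chr3:127633135-127635631, plus strand), Neurod1 (chr2:79452521-79456751, minus strand), Neurod2 (chr11:98325415-98329648, minus strand), Neurod4 (chr10:130268152-130280240, minus strand) and Nhlh1 (chr1:172052292-172057573, minus strand) have 2 exons. Nhlh2 (chr3:102010076-102015492, plus strand) has 3 transcripts with 2 to 3 exons. Neurod1 lies within Cerkl on the same strand and overlaps the antisense gene Gm26755, so reads there could be split. Cerkl had 1 molecule in the tail and 0 in the brain, and Gm26755 had 0 in either.

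The tail library held 1964 kept cells of 2469 barcodes, with 2817103 molecules and a median of 1282.5 per cell. The brain library held 7988 of 12111, with 6424466 molecules and a median of 696. The libraries shared 29 barcodes, of which 18 were kept in both, and 0 of these carried a factor in either library. Of the other cell types, 5 of 5 tested fibroblast genes and 5 of 5 keratinocyte genes were at least 4-fold higher in the tail and 6 of 6 astroglial genes in the brain, so the sorted cells were of mixed kinds. Sox1 molecules were found in 6.62% of tail cells with a factor and 10.0% of tail cells without, and in 8.47% and 8.45% in the brain. Intervals are exact 95% intervals of counts and cover counting error only.

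Across all kept cells, the factors together were higher in the tail. The tail gave 492 of their molecules and the brain 161, or 174.6 and 25.1 CPM, a ratio of 6.97 (5.82 to 8.38). Most of this difference lay in Nhlh1 and Nhlh2: without Nhlh2 the ratio was 3.09 (2.5 to 3.82), and without either it was 1.76 (1.36 to 2.28). These sums without them were added after the data were seen. Levels are given as CPM, the counts of molecules scaled to an equal sum for each library or group of cells, not divided by gene length since the method counts 3′ ends, and are compared only for the same gene between cells. A lower level can mean fewer cells or less RNA per cell, and the share of cells is therefore given beside each.

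Among the proneural factors, Neurog1 had 5 tail molecules (1.77 CPM) and 5 brain molecules (0.778), a ratio of 2.28 with an interval from 0.525 to 9.91. Neurog2 had 8 in the tail (2.84) and 12 in the brain (1.87), a ratio of 1.52 (0.539 to 4.04). Both intervals hold equality, so neither neurogenin differed detectably between the libraries at this depth. Atoh1 had 5 molecules in 4 tail cells and none in brain cells, which was at least 3.80-fold higher in the tail when the brain count is set at the limit of 3 molecules that a count of 0 allows. That value takes the 5 tail molecules as they are, and the lower exact bound of the ratio was 2.09. Neurog1 was found in 5 tail and 5 brain cells and Neurog2 in 8 and 10, almost always as a single molecule. The proneural factors were thus rare in both libraries.

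Among the neuronal factors, Neurod1 had 63 tail and 101 brain molecules, or 22.4 and 15.7 CPM, a ratio of 1.42 (1.02 to 1.97). Neurod1 was found in 40 tail cells (2.04%) and 32 brain cells (0.401%), so the brain cells that had it held more of it, with a mean of 3.16 molecules per cell against 1.58 in the tail. In the brain, 17 of the 32 had at least 3 molecules, and in the tail 5 of the 40. Neurod2, which follows Neurod1 in many excitatory neurons, had 18 molecules in 13 tail cells and 16 in 10 brain cells, a ratio of 2.57 (1.23 to 5.38). Neurod4, a factor of newborn neurons, had 10 molecules in 10 tail cells and 7 in 7 brain cells, a ratio of 3.26 (1.12 to 10.1). Under edgeR's TMM scaling, which moves every ratio by a log2 shift of -0.39, the ratios were 1.09 for Neurod1 (0.782 to 1.51), 1.96 for Neurod2 (0.945 to 4.12) and 2.49 for Neurod4 (0.857 to 7.72). All 3 intervals then hold equality, so the differences of the Neurod genes between the libraries rest on the scaling.

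The Nhlh genes differed far more. Nhlh1 had 105 tail and 17 brain molecules, or 37.3 and 2.65 CPM, a ratio of 14.1 (8.39 to 25.1). Nhlh2 had 278 and 3, or 98.7 and 0.467 CPM, a ratio of 211 (71.6 to 1031). Nhlh1 was found in 66 tail cells (3.36%) and 12 brain cells (0.150%), and Nhlh2 in 94 (4.79%) and 3 (0.0376%). Nhlh2 was also the factor with most molecules per tail cell, with a mean of 2.96, a highest value of 13 and 45 cells at 3 or more. The mix of factors was thus unlike: Nhlh2 gave 56.5% of the factor molecules of the tail and Nhlh1 21.3%, whereas Neurod1 gave 62.7% of those of the brain.

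**Figure D1:**
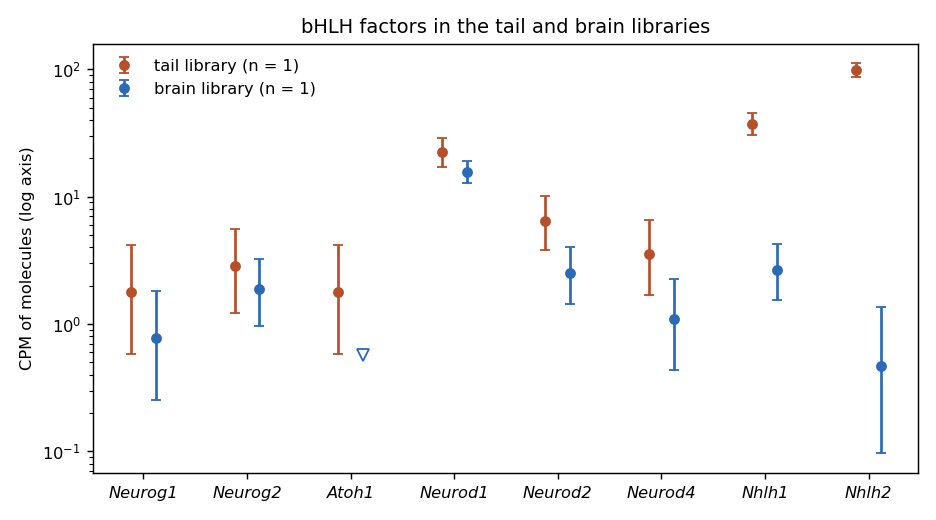
Levels of the 8 bHLH factors in CPM (log axis) in tail and brain cells, n = 1 library each, with exact 95% counting intervals as bars and open triangles at the upper bound where the count is 0. Nhlh1 (37.3 against 2.65) and Nhlh2 (98.7 against 0.467) are the factors farthest apart, and Atoh1 has no molecule in the brain.

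A gene was called at least 4-fold apart when its whole interval lay beyond 4-fold, among genes with at least 50 molecules over both libraries. Neurod1, Nhlh1 and Nhlh2 met this minimum and 5 factors did not. Nhlh1 (105 tail and 17 brain molecules) and Nhlh2 (278 and 3) met it only through the tail, where they are high. The calls below therefore restate their ratios and are no separate support for them. Nhlh1 and Nhlh2 were called higher in the tail, against 6.35% of the 11347 genes compared. Of these genes 4.66% were called higher in the brain, and 0 of the 3 factors were.

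Depth differed between the libraries, so 400 molecules were drawn at random from each cell, which left out 19 tail and 718 brain cells that were shallower. At this depth a cell with at least 1 factor, called a factor cell here, accounted for 81 of 1945 cells in the tail (4.16%) and 34 of 7270 in the brain (0.468%). Before thinning it was 136 of 1964 (6.92%, interval 5.84 to 8.14) and 59 of 7988 (0.739%, 0.563 to 0.952). By gene, the thinned shares were 0.874% and 0.303% for Neurod1, 0.925% and 0.124% for Nhlh1, and 2.93% in the tail for Nhlh2, with 0 thinned brain cells. Factor cells were deeper than the others, with a median of 1381 against 1271 molecules in the tail and 1087 against 694 in the brain.

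Free RNA can give a molecule to a cell that does not use the gene. Cells with molecules of at least 3 non-neural markers served as reference, and 0 of 251 in the tail (median depth 2081) and 0 of 43 in the brain (median depth 652) had a factor. A count of 0 allows a share of up to 1.20% and 6.98%. The tail shares of Nhlh2, Nhlh1 and Neurod1 lie above this limit. The tail shares of the other 5 factors and all brain shares lie under it, so for those the reference cells do not separate expression from free RNA.

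The cells were next divided by 5 marker genes, each cell counting for a marker with at least 1 molecule of it. Top2a marks dividing cells, Dlx1 forebrain inhibitory neuroblasts, Slc17a6 excitatory neurons through a vesicular glutamate transporter, Gad2 inhibitory neurons through a GABA-synthesising enzyme, and Slc1a3 astroglia and radial glia through a glutamate transporter. The tail held 176 Top2a, 1 Dlx1, 39 Slc17a6, 93 Gad2 and 753 Slc1a3 cells, and 971 with none. The brain held 273 Top2a, 1482 Dlx1, 16 Slc17a6, 383 Gad2 and 5659 Slc1a3 cells, and 873 with none. A cell can carry several markers, but the tail Slc17a6 and Gad2 cells carried no other of the 5.

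In both libraries factor cells were most frequent among the few Slc17a6 cells, although 103 tail and 48 brain factor cells lay outside them. In the tail 33 of 39 Slc17a6 cells (84.6%, 69.5 to 94.1) were factor cells, against 5.35% of the other tail cells. In the brain it was 11 of 16 (68.8%, 41.3 to 89.0), against 0.602% of the others. After thinning these were 20 of 39 (51.3%) and 8 of 16 (50%). Summed over the 8 factors, the level in Slc17a6 cells was 14.1 times that of the other tail cells (11.3 to 17.6) and 66.8 times that of the other brain cells (42.8 to 101). Groups this small were added after the data were seen.

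The factor that led in the Slc17a6 cells was not the same in each library. In the tail Slc17a6 cells, Nhlh2 had 56 molecules (1054 CPM against 80.3 in other tail cells, 13.1 times) and Nhlh1 had 33 (621 against 26.0, 23.8 times). Neurod1 had 11 there (207 against 18.8, 11.0 times). In the brain Slc17a6 cells, Neurod1 had 14 molecules (694 CPM against 13.6, 51.1 times), with 5 of Nhlh1, 4 of Neurod2, 3 of Neurog2 and 2 of Nhlh2. Set against each other within Slc17a6 cells, tail over brain was 10.6 for Nhlh2 (2.81 to 90.0), 2.51 for Nhlh1 (0.973 to 8.23) and 0.298 for Neurod1 (0.123 to 0.708). Neurod1 was thus lower in the tail than in the brain within Slc17a6 cells.

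The Gad2 cells differed between the libraries. In the brain 285 of the 383 also carried Dlx1, so they are not the same kind of cells as those of the tail. In the tail 12 of 93 Gad2 cells (12.9%, 6.85 to 21.5) were factor cells, against 6.63% of the others (5.54 to 7.85), and these intervals overlap. Nhlh2 had 32 molecules in the tail Gad2 cells (228 CPM against 91.9, 2.48 times, 1.66 to 3.59). Neurod1 had 6, Neurod2 3, Nhlh1 2 and Neurod4 1 in these cells. In the brain 0 of 383 Gad2 cells had a factor, with an exact interval of 0 to 0.959%. The brain Dlx1 cells had a factor in 7 of 1482 (0.472%, 0.190 to 0.971), with 4 molecules each of Neurod1, Neurod4 and Nhlh1. Among the other brain cells it was 0.799% (0.597 to 1.05), and these intervals overlap. The summed level of the factors in brain Dlx1 cells was 0.450 times that of the other brain cells (0.250 to 0.756), so the molecules were fewer there although the shares of cells could not be told apart.

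In the tail, dividing and glial cells held few factors. There 2 of 176 Top2a cells (1.14%) and 5 of 753 Slc1a3 cells (0.664%) were factor cells, and the summed level was 0.0734 and 0.0657 times that of the other tail cells. In the brain 6 of 273 Top2a cells (2.20%, 0.811 to 4.72) were factor cells, against 0.687% of the other brain cells (0.515 to 0.898), and the intervals overlap. After thinning it was 1 of 269 (0.372%) against 33 of 7001 (0.471%). Of the 5659 brain Slc1a3 cells, 25 were factor cells (0.442%, 0.286 to 0.651), against 1.46% of the others (1.01 to 2.03), and these made up 25 of the 59 brain factor cells. The Top2a and Slc1a3 cells of the brain had summed levels of 0.641 (0.253 to 1.35) and 0.224 times those of the other cells. The first of these intervals holds equality. In the 35 brain cells with Top2a and no other of the 5 markers the summed level was 1.79 times that of the rest. All brain Top2a cells together held only 4 molecules of Neurod4, 2 of Neurog2 and 1 of Neurod1, so this value rests on very few molecules. The direction for brain Top2a is therefore not settled. Neurod4 was the exception in the brain Top2a cells, with 4 of its 7 molecules there, a ratio of 18.8 (3.18 to 128). Many factor cells carried none of the 5 markers, at 84 of 971 (8.65%) in the tail and 19 of 873 (2.18%) in the brain. Neurod1 had 50 of its 101 brain molecules in such unmarked cells, or 88.6 CPM against 8.70 in the others (10.2 times).

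**Figure D2:**
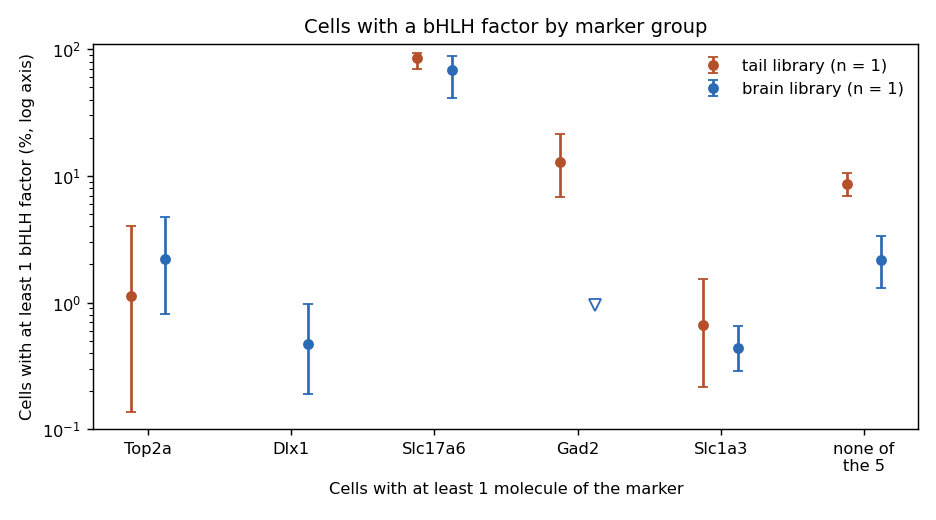
Percent of cells with at least 1 of the 8 bHLH factors among cells with each marker and among cells with none, per library (n = 1 each), with exact 95% intervals and open triangles at the upper bound where the count is 0. The Slc17a6 cells stand far above every other group at 84.6% in the tail and 68.8% in the brain, and the 1 tail cell with Dlx1 is left out.

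The same 4-fold rule was applied to each marker group against the other cells of its library. In the tail Slc17a6 cells 3 of the 3 factors with enough molecules were called higher, against 0.741% of all genes compared. In the brain Slc17a6 cells Neurod1, the only factor with enough molecules there, was called higher, against 0.459%. No factor was called in the tail Top2a (background 0.874%), Gad2 (1.55%) or Slc1a3 (0.0364%) cells, nor in the brain Top2a (2.62%), Dlx1 (5.26%), Gad2 (0.571%) or Slc1a3 (2.96%) cells.

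Read from the factors instead, the tail cells carried these transmitter genes as follows. Of 66 Nhlh1 cells, 21 had Slc17a6 and 1 had Gad2. Of 94 Nhlh2 cells, 26 had Slc17a6 and 10 had Gad2. Of 40 Neurod1 cells, 8 had Slc17a6 and 4 had Gad2, and of 13 Neurod2 cells 0 had Slc17a6 and 3 had Gad2. Nhlh1 cells thus carried Slc17a6 (31.8%, 20.9 to 44.4) more often than Gad2 (1.52%, 0.0384 to 8.16). Between the factors, however, the exact intervals of these shares overlap for either transmitter gene. By level, Gad2 in Nhlh1 cells was 0.234 times that of the tail cells without Nhlh1 (0.00589 to 1.33). The same ratio was 2.78 (1.51 to 4.79) for Nhlh2 and 5.36 (1.44 to 14.1) for Neurod2, both apart from that of Nhlh1. For Neurod1 it was 2.13 (0.679 to 5.10), which overlaps all of these. In the brain 11 of the 59 factor cells had Slc17a6 and 0 had Gad2.

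The factors often occurred in the same cell. In the tail 56 factor cells had 1 factor, 57 had 2, 22 had 3 and 1 had 4, so that 80 of 136 (58.8%, 50.1 to 67.2) had at least 2. In the brain it was 42 with 1, 14 with 2 and 3 with 3, or 17 of 59 (28.8%, 17.8 to 42.1). After thinning it was 24 of 81 (29.6%, 20 to 40.8) and 8 of 34 (23.5%, 10.7 to 41.2), which overlap, so the higher share in the tail was not seen at equal depth. Scrublet, which marks likely doublets, marked 1 tail and 2 brain factor cells and 0 of those with at least 2 factors. It marked 7 of 1964 tail cells (0.356%), so few that doublets cannot be taken as found there, and 67 of 7988 brain cells.

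Nhlh1 and Nhlh2 formed the leading pair of the tail. Nhlh2 was found in 45 of 66 Nhlh1 cells (68.2%, 55.6 to 79.1) and in 49 of the 1898 tail cells without Nhlh1 (2.58%). It was found in 28 of 40 Neurod1 cells (70.0%, 53.5 to 83.4) against 3.43% of the others, and in 8 of 13 Neurod2 cells. Nhlh1 was found in 18 of 40 Neurod1 cells (45.0%). The commonest sets of at least 2 were Nhlh1 with Nhlh2 in 28 cells, Neurod1 with Nhlh2 in 12, and Neurod1 with both Nhlh genes in 11.

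In the brain Neurod1 was the common partner. It was found in 9 of 12 Nhlh1 cells (75.0%), in 3 of 3 Nhlh2 cells and in 4 of 10 Neurod2 cells, and the commonest set was Neurod1 with Nhlh1, in 6 cells. The pairs were kept in part after thinning, with Nhlh2 in 8 of 18 tail Nhlh1 cells and Neurod1 in 7 of 9 brain Nhlh1 cells.

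For the rarer proneural genes, the counts were small. In the tail, 6 of 8 Neurog2 cells (75.0%, 34.9 to 96.8) had Nhlh1 and 3 of them also Nhlh2. No tail cell with Neurog1 or Neurog2 had a Neurod gene, where the exact upper bound is 36.9% for the 8 Neurog2 cells. Neurod4 was found with Neurod1 in 5 of its 10 tail cells and with Neurod2 in none. In the brain, 5 of 5 Neurog1 cells had no other factor. Slc1a3 was found in 4 of these 5 and in 7 of the 10 brain Neurog2 cells, near the 70.8% of brain cells without the factor. By level, the ratio to the cells without the factor was 0.201 (0.123 to 0.310) for Neurog2, on 20 Slc1a3 molecules in 7 cells. For Neurog1 it was 1.70 (1.27 to 2.23), on 52 molecules in 4 cells. These intervals do not measure the spread between so few cells. In brain Neurod1 cells Slc1a3 was found in 10 of 32 (31.3%, 16.1 to 50), against 71.0% of the cells without Neurod1.

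**Figure D3:**
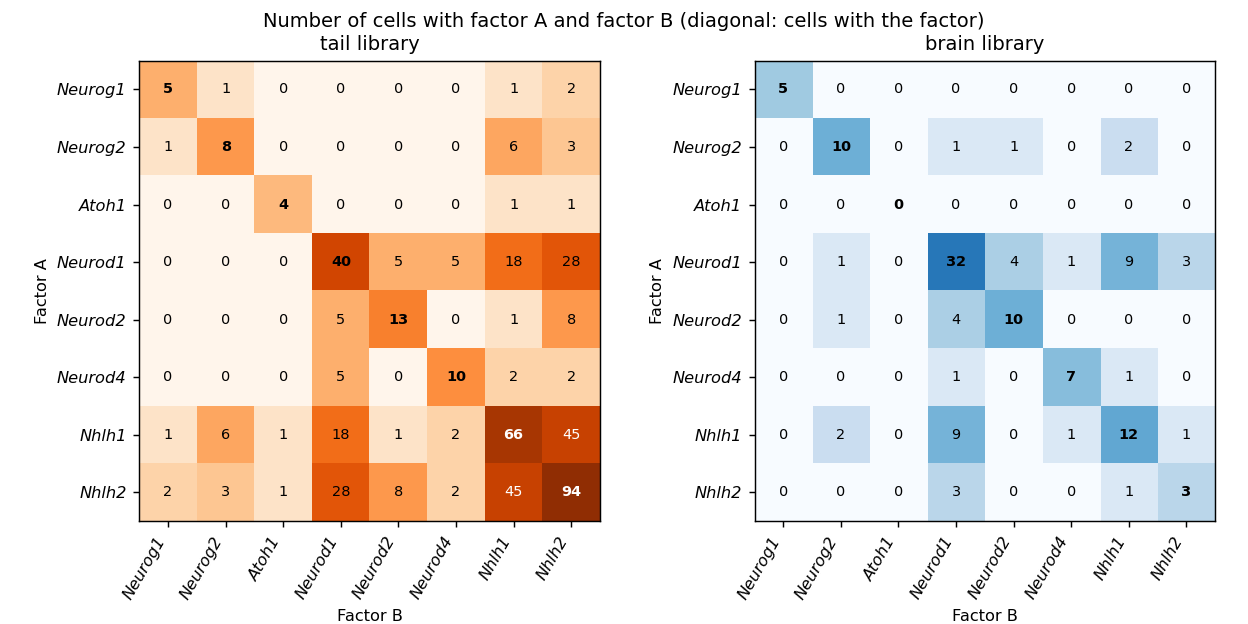
Number of cells with both factors of a pair, tail and brain library side by side, with the diagonal giving the number of cells with that factor. The tail block of Nhlh1, Nhlh2 and Neurod1 holds the largest counts (45, 28 and 18 cells), and in the brain Neurod1 with Nhlh1 leads with 9 cells.

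The 4 Atoh1 cells of the tail were looked at one by one, and the genes named for them were picked after their values were seen. In 3 of them no other factor was present, and each of the 3 had the keratins Krt8 and Krt18, which mark Merkel cells among other epithelia, and Sox1. Their molecules of Krt8 were 2, 1 and 6, and of Krt18 5, 3 and 1. These cells held all 9 molecules each of Krt8 and Krt18 found in tail factor cells, and 9 of the 15 Krt18 molecules of the whole tail library. The fourth cell had Nhlh1, Nhlh2 and Slc17a6, 3 molecules of Barhl1, a gene of dorsal spinal interneurons that depend on Atoh1, and no Krt8 or Krt18. The Merkel genes Krt20 and Isl1 were at 0 in the factor cells.

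The leading genes of the factors differed between the libraries. For each factor with at least 30 cells, the 5 leading genes are those with the highest lower bound of the level ratio between cells with and without it. Tail Nhlh2 cells were led by Robo3, a receptor that lets commissural axons cross the midline, with 251 of the 275 tail Robo3 molecules in 55 of the 94 cells (1922 CPM against 8.93, 215 times, 141 to 342). Nrgn, Cntn2, Nxph4 and Pou4f1 followed, at ratios from 42.7 to 77.9. Tail Nhlh1 cells were led by Nrgn (58.0 times), Pou4f1 (54.3), Slc17a6 (42.1), Robo3 (30.8) and Nxph4 (27.9). The Nhlh lists share 4 of 5 genes, and 45 cells stand in both.

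Tail Neurod1 cells, 28 of which also had Nhlh2, were led by Slc17a6 (25.7 times), the related bHLH gene Bhlhe22 (26.3), Pax2 (21.0), Lamp5 (18.2) and Dbx1 (15.8). Slc17a6 is also in the Nhlh1 list. The 24 Dbx1 molecules lay in 4 of the 40 cells, while Bhlhe22 was found in 16, Pax2 in 10, Lamp5 in 9 and Slc17a6 in 8. Robo3 was at 1006 CPM (756 to 1313) in the Neurod1 cells, in 14 of them. Pax2 is known in inhibitory spinal interneurons and Dbx1 in progenitors near the middle of the neural tube. The sensory and excitatory interneuron genes Pou4f1 and Lmx1b were at 0 molecules in the 40 Neurod1 cells, with an upper bound of 68.7 CPM, against 50 and 34 molecules in the 66 Nhlh1 cells (538 and 366 CPM).

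Brain Neurod1 cells were led by Enc1 (60.5 times), Eomes (57.8), Mfap4 (35.9), Hecw1 (38.0) and Prox1 (21.0). Eomes, which marks intermediate progenitors of cortical and hippocampal excitatory neurons, had 14 molecules in 11 of the 32 cells. Prox1, a gene of hippocampal granule neurons among other cells, had 36 in 14 cells (1047 CPM), and Tbr1, a cortical excitatory neuron gene, had 13 in 9. Prox1 was not particular to the brain. In tail factor cells Prox1 (6.84 times, 5.06 to 9.19) and Zic1 (19.0 times, 13.9 to 26.1) of the granule and cortical list were called higher. Neurod6, too rare for a call, had 28 of its 32 tail molecules there. Pax6, Cbln1 and Etv1 of that list were not higher there, at 0.711, 0.821 and 0. Robo3, Pou4f1, Lmx1b, Lhx5 and Lbx1 were at 0 in these cells, and over all brain cells Robo3 had 0 molecules, Pou4f1 2 and Lmx1b 1. The 12 brain Nhlh1 cells, 9 of which also had Neurod1, held the same genes, with 15 molecules of Prox1, 9 of Eomes, 8 of Lhx2 and 5 of Tbr1.

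**Figure D4:**
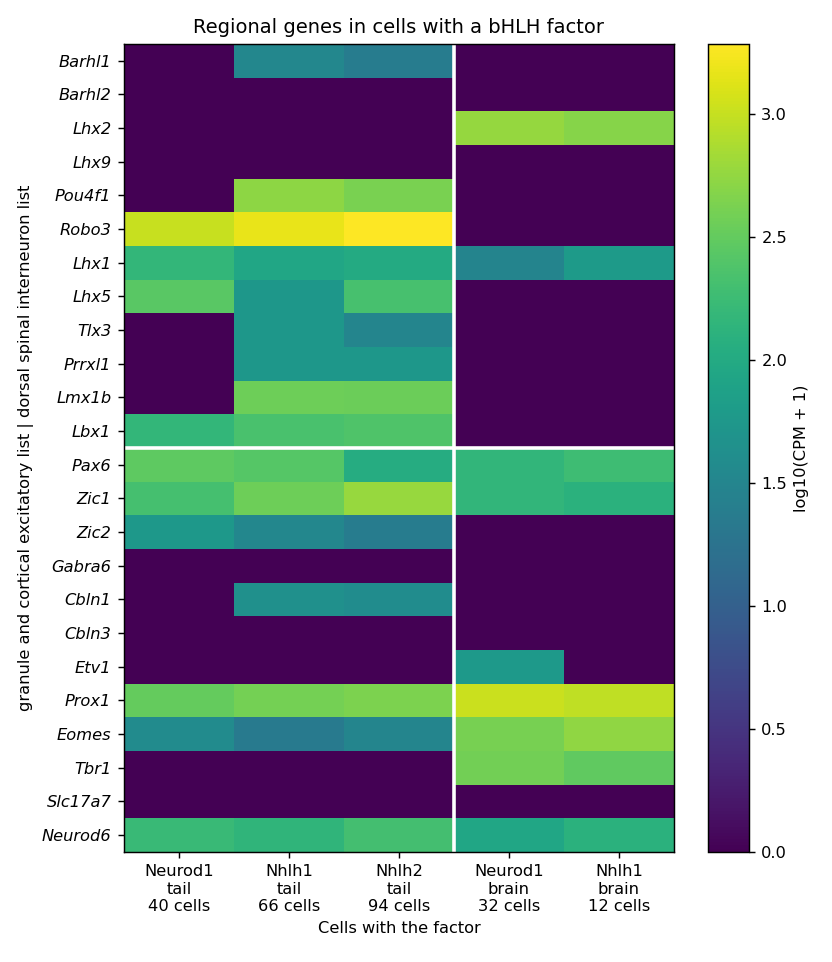
Levels of the 24 genes of the dorsal spinal interneuron list and the granule and cortical excitatory list, as log10 of CPM plus 1, in tail cells with Neurod1, Nhlh1 or Nhlh2 and brain cells with Neurod1 or Nhlh1. Robo3, Pou4f1, Lmx1b and Lbx1 appear in tail Nhlh cells (Robo3 at 1922 CPM in Nhlh2 cells), and Tbr1 and Lhx2 appear in brain Neurod1 and Nhlh1 cells, where Eomes is higher than in the tail cells (407 CPM in brain Neurod1 cells against 37.3 in tail ones).

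Tail cells with an Nhlh gene were divided, after the data were seen, into 21 with Nhlh1 and no Nhlh2, 45 with both and 49 with Nhlh2 and no Nhlh1. Their median depths were 1335, 1389 and 1341 molecules. Neurog2 occurred in 3, 3 and 0 of these cells, and Neurod2 in 1, 0 and 8. Dll3, a Notch ligand family member of newly specified neurons, was at 717 (444 to 1095), 566 (396 to 783) and 269 (159 to 425) CPM in this order. Robo3 was at 239 (96.0 to 492), 2105 (1764 to 2493) and 1748 (1445 to 2095). Dcx, a microtubule protein of migrating neurons, was at 682, 1131 and 1509. The cells with Nhlh1 alone therefore held more Dll3 and less Robo3 than the cells with Nhlh2 alone.

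The cells with Nhlh2 and no Nhlh1 also differed in some subtype genes. Pax2, which marks inhibitory interneurons of the dorsal spinal cord, was at 0 (upper bound 126), 189 (97.4 to 329) and 598 (427 to 814) CPM in the 3 classes. Gad2 was at 0, 15.7 and 209, with 9 of the 49 Nhlh2-alone cells holding it. Pou4f1 was at 375 (187 to 672), 613 (436 to 838) and 224 (125 to 370), where only the last 2 intervals are apart. Lhx5 was at 0, 78.6 and 344. The excitatory genes did not separate the classes, with overlapping intervals. Slc17a6 was at 409 (212 to 715), 534 (370 to 746) and 299 (182 to 461), and 10 of the 49 Nhlh2-alone cells held it. Lmx1b was at 205 (75.1 to 446), 440 (292 to 636) and 269 (159 to 425). A cell without a molecule of Nhlh1 may still express it below this depth, so the classes can mix.

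The partners and opponents of the bHLH factors were compared between factor cells and all other cells of the same library, with the 8 factors left out. The median ratio over all genes compared was 0.987 in the tail (8233 genes) and 1.11 in the brain (9810 genes), and 1.06% and 0.275% of genes were called at least 4-fold higher. The gene lists are described by counts and values only.

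The E proteins had a summed ratio of 3.17 in the tail and 2.82 in the brain, mostly from Tcf4. Tcf4 led, with ratios of 3.39 (3.01 to 3.80) and 3.00 (2.62 to 3.41), and Tcf12 was at 3.40 (2.77 to 4.14) in the tail and 1.59 (0.867 to 2.69) in the brain. Tcf3 was at 1.39 (0.873 to 2.12) and 1.99 (0.792 to 4.14), so its intervals hold equality. None of the 3 was called beyond 4-fold. The 4 Id inhibitors were lower as a sum, at 0.487 in the tail and 0.628 in the brain, but not all alike. In the tail Id3 was called at least 4-fold lower, at 0.0718 (0.0195 to 0.185), Id4 was at 0.187 (0.123 to 0.273), and Id2 was at 1.97 (1.58 to 2.45). In the brain Id4 was at 0.274 (0.125 to 0.521) and Id1 at 3.76 (1.36 to 8.37), on 6 molecules.

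The Hes and Hey repressors had summed ratios of 0.237 in the tail, where 2 of the 5 had enough molecules, and 0.158 in the brain, where 5 of 5 did. Hes1, the main Notch effector, was at 0.191 (0.0951 to 0.344) and 0.156 (0.00395 to 0.874). Hes5, another Notch effector, was at 1.12 (0.294 to 3.07) in the tail and 0.159 (0.00402 to 0.889) in the brain. Of the other class II bHLH genes, Bhlhe22 was called higher in the tail, with 52 of its 68 molecules in factor cells (43.9 times, 24.6 to 82.3), and had 10 of 29 in the brain. The oligodendrocyte lineage genes Olig1 and Olig2 were at 0 in the factor cells of both libraries.

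The neurogenic downstream genes had a summed ratio of 4.29 in the tail and 2.40 in the brain, but not every member was higher in factor cells. In the tail 8 of 19 with enough molecules were called at least 4-fold higher, namely Dll3, Ebf1, Ebf2, Ebf3, Elavl3, Elavl4, Dcx and Tubb3, and in the brain 0 of 16. Btg2, an antiproliferative gene, went the other way in the tail at 0.619 (0.471 to 0.8), and was at 3.12 (1.94 to 4.76) in the brain. St18 was at 4.32 (3.33 to 5.56) in the tail and had 0 of its 165 brain molecules in factor cells, where the ratio has an upper bound of 2.11. Ebf2, a transcription factor of newborn neurons, stood out in the tail with 125 of its 162 molecules in factor cells (45.6 times, 31.4 to 67.7). Ebf1, Ebf2 and Ebf3 were nearly undetected in the brain as a whole, with 5, 6 and 2 molecules, 1 of which lay in a factor cell. In the brain the highest ratios with enough molecules were 5.97 for Dll3 (2.52 to 12.1) on 8 molecules, 4.91 for Dll1 (1.77 to 11.0) on 6, 4.55 for Cbfa2t2 (1.21 to 12.1) on 4, and 3.95 for Elavl4 (2.98 to 5.15) on 57.

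Marker lists of other cell types were compared in the same way. The neuron and neuroblast list was at 5.90 in the tail and 2.35 in the brain, and the astroglial list at 0.393 and 0.263. Within the astroglial list Slc1a2, another glutamate transporter, was at 2.70 (1.94 to 3.69) in the tail, with 48 of the list's 68 molecules in tail factor cells, and at 0.193 (0.153 to 0.240) in the brain. The cycling list was at 0.106 (13 molecules) in the tail and 1.40 (0.977 to 1.94) in the brain. Cycling genes were thus low in the tail factor cells, while in the brain the interval holds equality. The fibroblast and keratinocyte lists were at 0.00434 and 0.0105 in the tail, and the ependymal list at 0.0236. The dorsal spinal interneuron list was at 27.7 in the tail and 5.37 in the brain, the latter with 31 of 32 molecules from Lhx2, and the granule and cortical list at 2.77 and 4.84, with Eomes at 146 (84.2 to 258) in the brain. The Merkel list was at 6.99 and 5.92 mainly from Rab3c, a vesicle gene that neurons share, which gave 113 of the list's 132 molecules in tail factor cells.

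**Figure D5:**
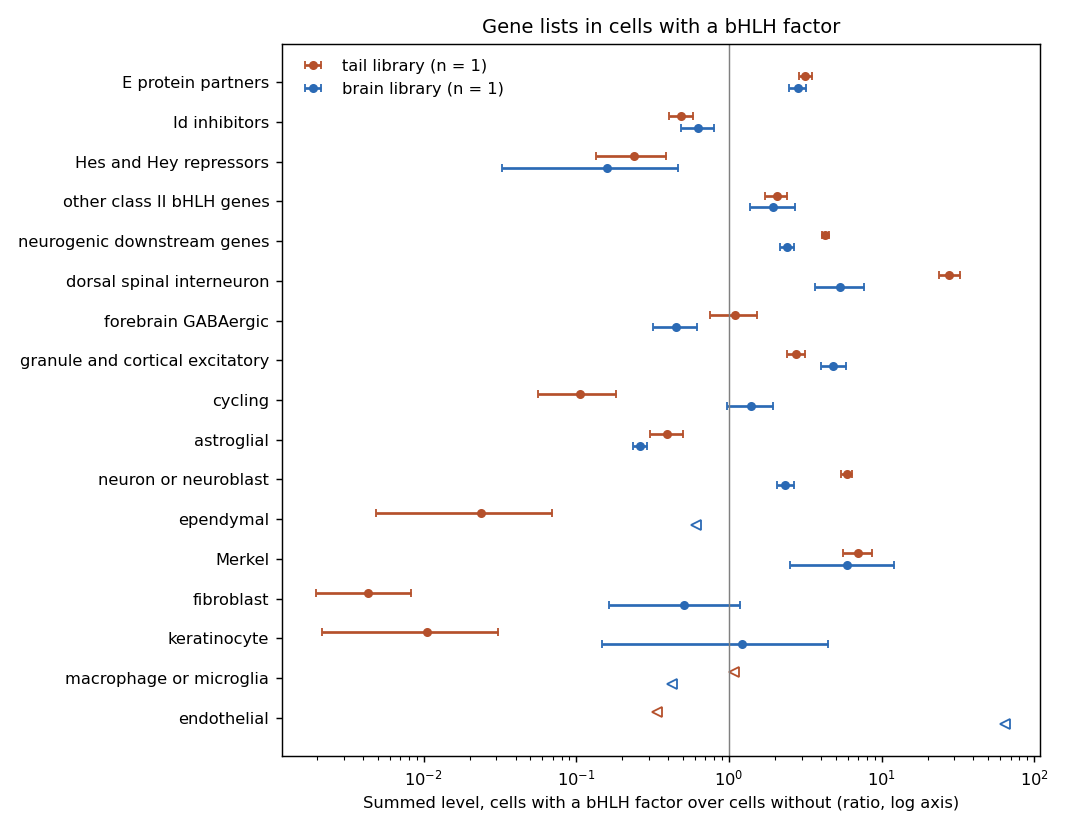
Ratio of the summed level of each of 17 gene lists in cells with at least 1 bHLH factor over the other cells of the same library (log axis), with exact 95% counting intervals, for the tail and the brain (n = 1 library each). E protein partners, downstream genes and neuron genes lie above 1 in both libraries, Hes and Hey repressors and astroglial genes lie below 1 in both, and cycling genes lie at 0.106 in the tail and 1.40 in the brain.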

How the data were processed

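Single Sox1-GFP+ cells of the tail (1 library) and brain (1 library) were captured on the BD Rhapsody system, which tags each molecule. The authors deposited counts of molecules. According to the headers of those files, reads went through the BD Rhapsody WTA Analysis Pipeline 1.10.1 on GRCm38 with the GENCODE vM19 annotation, and each gene has raw and error-corrected molecule counts per barcode. The labels also name UMI-tools 1.0.1, STAR 2.7.1a and featureCounts 1.6.4 for the series without saying for which files. Error-corrected counts were used, and raw molecule counts served as an alternative. The members and gene lists were chosen with earlier results of these data known.

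For levels, the molecules of all kept cells of a library or group were added up and scaled to CPM. Shares have Clopper-Pearson intervals, levels Poisson intervals and ratios conditional exact binomial intervals (95%), checked on simulated data. A count of 0 was set at 3 molecules or cells. With 1 library per group no test was run and no standard error is given, and cells are not replicates. Genes with at least 50 molecules, mitochondrial genes left out, were called when the whole ratio interval lay beyond 4-fold. Named genes are the 8 members, the 5 markers, the fixed lists and the 5 leading genes of each member found in at least 30 cells of a library, and exceptions are stated. Cells were thinned to 400 molecules for shares. Likely doublets were marked by Scrublet in scanpy 1.11.5 (expected rate 5%) and kept. Python packages were numpy 2.4.6, scipy 1.17.1, pandas 2.3.3 and matplotlib 3.10.9. Scaling alternatives used edgeR 4.0.16 and DESeq2 1.42.0 in R 4.3.3, for normalization factors only. Promoters are from RefSeq (GRCm38.p6). Some genes of the lists are not reported here.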

Additional observations from a re-analysis of the deposited data

Results flagged for a closer look

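Barcodes that did not pass the cell filter were set aside from every comparison, and the factors were counted in them after the data were seen. In the 4123 removed brain barcodes, Neurod2 had 6 molecules, each in a different barcode, or 5.78 CPM against 2.49 in the kept brain cells. This count lies above the 3 molecules that a count of 0 allows. In the 505 removed tail barcodes no factor had more than 2 molecules.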

How the results depend on the processing

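No paired analysis was possible because each group has 1 library, and no library could be left out. The point ratio of tail over brain lay above 1 for each of the 8 factors under every alternative for levels. The main intervals of Neurog1 and Neurog2 held equality, as did those of the Neurod genes under edgeR's TMM. For these factors the direction is therefore not settled. Of the 95 alternative values for summed levels, shares and counts of genes, 66 stayed within their counting interval or within 1.5 times the count, 29 moved and 0 reversed. Of 109 alternative values for single factors, 77 stayed, 32 moved and 0 reversed. Only a ratio whose main interval excluded equality could count as reversed, so shares, counts and the other ratios could not. The brain Top2a ratio, on very few molecules, crossed equality from 0.641 to 1.79 and counts as moved. The summed ratio of 6.97 became 5.34 with edgeR's TMM, 5.41 with DESeq2's size factors (log2 shifts of -0.39 and -0.37 for all genes), 8.78 without the non-neural reference cells and 9.86 as a mean over cells. The share of factor cells, 4.16% (tail) and 0.468% (brain) at 400 molecules, became 6.92% and 0.739% unthinned, 6.93% and 1.23% at 800 molecules, and 1.54% and 0.138% when 2 molecules were required. Under 20% mitochondrial molecules the tail share was 5.23%. With 2 marker molecules required, the summed level relative to other cells was 0.0191 in tail Top2a cells, 0.0160 in tail Slc1a3 cells and 0.118 in brain Slc1a3 cells. In cells with exactly 1 of the markers it was 1.79 for brain Top2a and 0.0569 for brain Dlx1. The share of tail factor cells with at least 2 factors fell from 58.8% to 29.6% after thinning and 31.3% when 2 molecules of each were required. With a minimum of 200 molecules, where fewer genes are compared, genes higher in the tail numbered 301 instead of 720 (1145 with no minimum) and factors 1 instead of 2. The marker groups then had 15 genes (tail Top2a), 18 (tail Slc17a6, with 1 factor), 51 (tail Gad2), 93 (brain Top2a), 272 (brain Dlx1) and 20 (brain Slc17a6, with 0 factors), where the minimum of 50 gave 72, 61 with 3 factors, 128, 257, 516 and 45 with 1 factor. Except where stated, the cause of a move was not tested. Depth limits the rare factors: Neurog1, Neurog2, Atoh1, Neurod2 and Neurod4 had at most 18 molecules in a library, so their absence from a cell or group says little.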
